A study of Mus musculus with 6 samples.

Results

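The CpGs described here were read at least 20 times on the plus strand and at least 20 times on the minus strand in each of 6 RRBS libraries. They were 236024 of the 1531642 CpGs with a read in any library, and they were chosen by depth alone, without regard to methylation. The libraries came from 3 kinds of male mouse pluripotent stem cells with 2 replicates each, and the study asked how their DNA methylation differs. C-iPSCs were induced chemically and 4F-iPSCs with Oct4, Sox2, Klf4, and c-Myc carried by retroviruses, both from fibroblasts of OG2 mouse embryos, and both were at passages 5 to 10. The mESCs were of the E14 line, at passages 20 to 30. All were grown on mitomycin C-treated MEF feeders in medium with LIF and the 2i inhibitors CHIR99021 and PD0325901, and the feeders were taken off on gelatin before the cells were collected. Nothing in the labels says whether the replicates of a cell type were separate cultures or clones, so tests over libraries measure only the spread between these samples. Base calls were not analysed here, so at a single CpG a sequence variant and a methylation difference cannot be told apart.

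The libraries held between 53694199 and 96534037 reads on CpGs. At the chosen CpGs, median depth per strand ranged from 36 reads in mESC replicate 2 to 65 in 4F-iPSC replicate 1. The promoters of the pluripotency genes Pou5f1, Sox2, Esrrb, and Sall4 held 48 of these CpGs, with mean levels on either strand between 1.01% and 2.48% in every cell type, although the 2 CpGs of Pou5f1, which encodes Oct4, were at 15.4% and 11.5% on the plus and minus strands in 4F-iPSCs. In the fibroblast genes Col1a2, Twist1, and Fbn1, the mean level of 22 CpGs was between 0.999% and 2.60% on either strand, and no fibroblast library was among the samples to compare them with.

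CpG is its own reverse complement, so each site carries a cytosine on both strands. After replication the new strand is unmethylated, and Dnmt1, guided by Uhrf1, copies the mark from the old strand. A site methylated on only one of its strands is called hemimethylated. In bisulfite sequencing, unmethylated cytosines are read as T, and plus and minus strands are read from separate molecules, so equal levels do not show that both cytosines of one molecule were methylated. RRBS adds a second source of strand differences. MspI cuts C^CGG, and the overhangs are filled in with unmethylated nucleotides, so at the left end of a fragment the cytosine of the plus strand is genomic and that of the minus strand is synthetic, while at the right end the reverse holds.

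The sequences shown are of CpGs with wide strand differences, though not of every CpG ranked as high, since their surroundings separate MspI cut sites from other CpGs. Each is 30 bases of the GRCm38 plus strand around the CpG, with the CCGG in capitals. The first 3 are the CpGs with the widest difference in C-iPSCs, the next 2 are among the widest in 4F-iPSCs, and the last 2 are those in mESCs apart from 1 CpG outside CCGG, which follows.
near Gm40264, chr5:9025698-9025699: tttccgcggagtcCCGGaaccaaggtagca
near Apol7e, chr15:77686409-77686410: cgtgtcagttgttCCGGcagccagaatggg
near Gm47245, chr10:83806125-83806126: gagaagaaacattCCGGtctctaaacagcc
intron of Gm34081, chr12:109505675-109505676: gttgagggggacaCCGGtctttaaatgagg
near Gm10259, chr3:25214412-25214413: catcccatccacaCCGGggaagcagagact
intron of Cfap299, chr5:98641645-98641646: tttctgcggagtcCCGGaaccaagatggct
intron of Dock4, chr12:40498204-40498205: gaggaatggcctgCCGGtctgggttcctcg

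Outside CCGG, the 5 CpGs with the widest difference kept in all 3 cell types are shown next, with the CpG in capitals. All 5 lie in intergenic sequence, and all but that near Rps15a-ps8 in sequence that GRCm38 marks as repeats. The ranking restricted to CpGs outside CCGG was made after their values were seen.
near Ddr2, chr1:170117130-170117131: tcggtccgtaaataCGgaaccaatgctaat
near Rps15a-ps8, chr4:53807659-53807660: attcccgggtttctCGgcaccacttctcac
near 4930553E22Rik, chr16:84386728-84386729: cttgtgccccagatCGggcccgggtagcct
near Abcc10, chr17:46346362-46346363: gatactagctcgggCGagaagtggtgccaa
near Gm23072, chr2:46319838-46319839: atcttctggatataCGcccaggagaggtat

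The methylation level was nearly the same on both strands at most CpGs. The median absolute difference between plus and minus strands was 1.46 percentage points in C-iPSC replicate 1 and 1.61 in replicate 2. It was 1.47 and 1.82 in the 4F-iPSC replicates, and 1.52 and 1.85 in the mESC replicates. Between 85.2% and 92.1% of the CpGs differed by at most 10 percentage points, and between 26.2% and 40.4% had no methylated read on either strand. Pearson's r between the strands was 0.938 and 0.947 in the mESC libraries and from 0.970 to 0.981 in the iPSC libraries. It runs across CpGs, which are not independent, and many share the value 0. Without the CpGs of CCGG it ranged from 0.9498 to 0.989. Over CCGG alone it fell between 0.796 and 0.886. From 0.653% of the CpGs in 4F-iPSC replicate 1 to 1.06% in mESC replicate 2, the shallowest library, differed by more than 30 percentage points. Over 153290 of the CpGs tested, those with levels between 0.1 and 0.9 as a fraction, the variance of strand differences between replicates that limma fitted as its prior was 1.08 times that of binomial sampling of the reads.

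**Figure D1:**
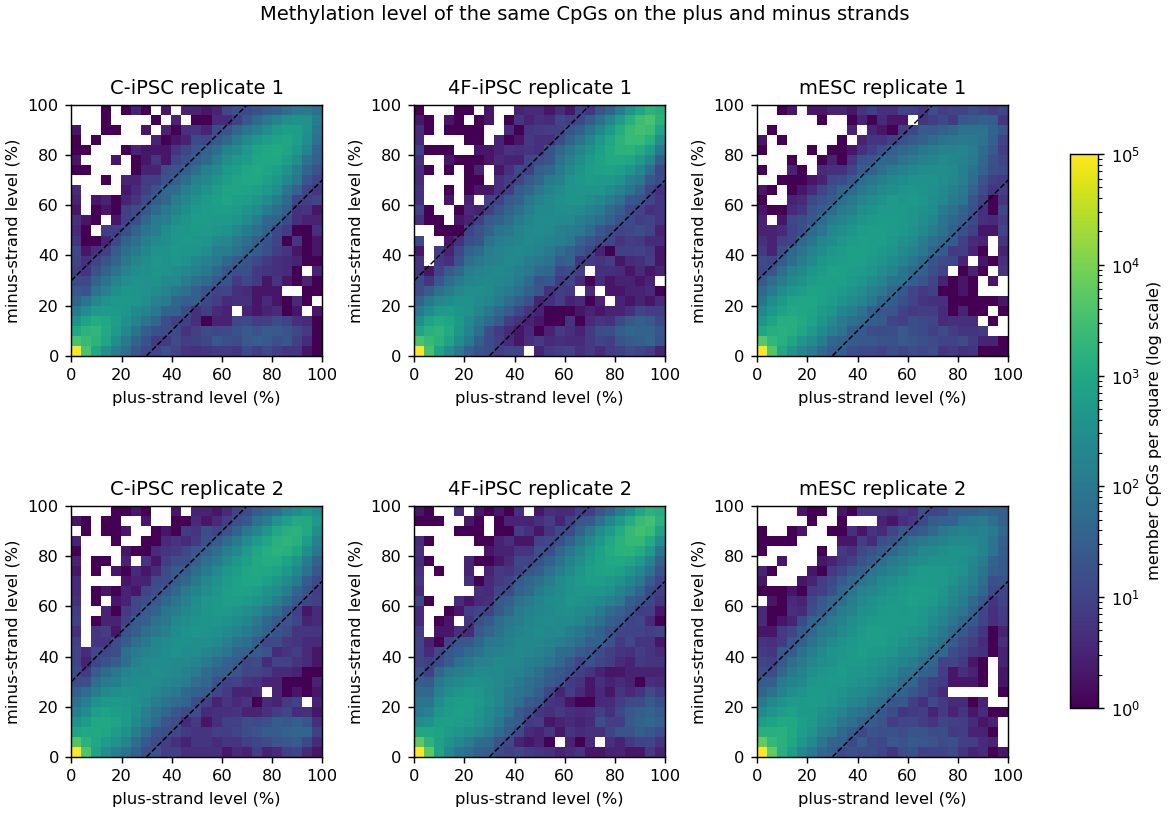
Methylation level of the chosen CpGs on the plus strand (horizontal, percent) against the minus strand (vertical, percent) in each of the 6 libraries, with color giving the number of CpGs per square on a log scale and dashed lines marking a difference of 30 percentage points. Most CpGs lie along the diagonal or at 0, and a separate group at the lower right has high plus-strand and low minus-strand levels in all 6 libraries.

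Mean levels gave the same order of the cell types on both strands. On the plus strand, C-iPSC libraries had means of 20.4% and 23.6%, 4F-iPSC libraries 26.5% and 26.5%, and mESC libraries 14.4% and 17.1%. The minus strand gave 20.3% and 23.5%, 26.4% and 26.3%, and 14.4% and 16.95%. The groups did not overlap on either strand. An exact permutation test of 2 libraries against 2 cannot give a p below 0.333, and all 6 comparisons gave that p.

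A minority of CpGs kept a wide strand difference in both libraries of a cell type. Differences above 30 percentage points with the same sign in both libraries were found at 1136 CpGs in C-iPSCs, 1235 in 4F-iPSCs, and 986 in mESCs. Among the 477284 CpGs with at least 10 reads on each strand in every library, the same rule takes 0.429%, 0.469%, and 0.377%, against 0.481%, 0.523%, and 0.418% of the CpGs described here. The plus strand was the higher one at 904 of the 1136, 983 of the 1235, and 774 of the 986. In mESCs, 2 more CpGs passed the threshold in both libraries with opposite signs. In all, 1619 CpGs were discordant in some cell type, 687 in all 3, 268 in both iPSC types but not in mESCs, 70 in C-iPSCs and mESCs, and 26 in 4F-iPSCs and mESCs. The remainder were discordant in 1 cell type, 111 in C-iPSCs, 254 in 4F-iPSCs, and 203 in mESCs. No CpG was higher on the plus strand in one cell type and on the minus strand in another. These counts depend on the threshold, since between 25 and 30 percentage points there were 323, 202, and 414 further CpGs, against 187, 144, and 203 between 30 and 35.

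Fisher's exact test on reads summed over both libraries, adjusted over the 477284 CpGs by the Benjamini-Hochberg method, called 1443 strand differences above 30 percentage points in C-iPSCs, 1390 in 4F-iPSCs, and 1368 in mESCs. That was 0.611%, 0.589%, and 0.580% of the CpGs, beside 0.550%, 0.552%, and 0.493% of all CpGs tested. The plus strand was higher at 1089, 1068, and 1001 of them, where the share of all tested CpGs was 0.365%, 0.367%, and 0.320%. It was lower at 354, 322, and 367, where that share was 0.184%, 0.184%, and 0.173%. The test does not use the spread between replicates.

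The differences recurred in cells that had no part in choosing them. Of the 1136 CpGs discordant in C-iPSCs, 86.4% (95% Wilson interval 84.2 to 88.2) were called with the same sign in 4F-iPSCs and 76.2% (73.7 to 78.6) in mESCs. The sign itself was shared by 1121 and 1107 of them. Of the 1235 discordant in 4F-iPSCs, 87.2% were called with that sign in C-iPSCs and 66.7% in mESCs, while C-iPSCs shared the call at 81.1% of the 986 discordant in mESCs and 4F-iPSCs at 73.3%. Here and elsewhere the intervals of shares hold counting error alone, as reads copied by PCR carry no identifiers of their molecules.

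Most discordant CpGs were MspI sites of a single kind. Only 16766 of the chosen CpGs lay in CCGG and 219210 on chromosomes did not, yet CCGG held 67.1% of the discordant CpGs in C-iPSCs, 66.3% in 4F-iPSCs, and 64.6% in mESCs. Averaged over the libraries, the absolute strand difference was 9.87 percentage points at CCGG and 3.37 elsewhere, a gap of 6.50 ± 0.911 (SD, 6 libraries), larger in 6 of 6 libraries, with p = 0.03125 in an exact sign-flip test over libraries, the smallest p it allows. The discordant CCGG were almost all at sites whose next CCGG to the right was 48 bp away. There were 1630 such CpGs, of which 740 were discordant in C-iPSCs, 791 in 4F-iPSCs, and 612 in mESCs, in each case with the plus strand higher. At the other 15136 CCGG only 22, 28, and 25 were discordant. The distance was singled out after the values were seen.

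A distance of 48 bp gives an MspI fragment of 50 bp after fill-in, which is the length of the reads. At these CpGs the mean plus-strand level was 41.1% and 49.6% in the C-iPSC libraries, 49.6% and 56.1% in the 4F-iPSC libraries, and 38.0% and 37.7% in the mESC libraries. The mean minus-strand level was 9.22% and 11.5%, 11.1% and 16.1%, and 10.4% and 9.23% in the same order. All plus-strand means lay above all minus-strand means. Where the site to the left was not 40 to 250 bp away, so that it could add few genomic minus-strand reads, the minus-strand means of 1033 such CpGs were between 7.42% and 13.3%. At the right end of the same fragments, where the synthetic cytosine is on the plus strand, plus-strand reads were missing at 1122 to 1165 of the 1628 sites listed, and the minus-strand level was between 37.5% and 59.0%. The plus-strand reads present there gave levels between 30.4% and 49.9%. Right ends in the whole series with no other CCGG within 1000 bp on the far side had 0 plus-strand reads per CpG. The level of the synthetic plus-strand cytosine was therefore not measured at that end. Whether fill-in made the low minus-strand level was not tested.

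The CCGG near Gm40264 shows the pattern. In C-iPSC replicates 1 and 2 the plus strand was methylated in 72 of 75 and 101 of 104 reads, while the minus strand was methylated in 3 of 66 and 1 of 50. The 4F-iPSC replicates gave 63 of 66 and 72 of 72 on the plus strand against 2 of 45 and 7 of 42 on the minus strand. In the mESC replicates it was 42 of 48 and 40 of 50 against 1 of 28 and 1 of 37. Each library thus had a nearly methylated plus strand beside a nearly unmethylated minus strand. The CCGG in the intron of Cfap299 showed the same, with 26 of 28 and 22 of 24 plus-strand reads methylated in mESCs against 0 of 23 and 1 of 51 on the minus strand. Of the 5 CpGs with the widest difference kept in all 3 cell types, 3 were CCGG with the next site 48 bp to the right. At chr9:116270515-116270516, near Gm31410, the plus strand was between 79.5% and 98.3% in the 6 libraries and the minus strand between 0% and 11.8%. At chr11:52947867-52947868, in an intron of Fstl4, the ranges were 86.8% to 100% and 4.35% to 14.7%. At chr17:89223676-89223677, near Fshr, which encodes the receptor of follicle-stimulating hormone, they were 82.5% to 96.5% and 2.70% to 16.7%. The strands did not overlap at any of these 3.

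At a distance of 47 bp the mean strand difference had the other sign. At 173 such CCGG the mean plus-strand level was between 0.0459% and 0.209% in the 6 libraries, and the mean minus-strand level was between 11.8% and 23.4%. The strand difference averaged -15.2 ± 4.29 percentage points (SD, 6 libraries) at 47 bp and 34.1 ± 5.47 at 48 bp. From 50 to 70 bp to the right it stayed between -0.123 and 0.938. Isolated sites of the whole series had no other CCGG within 1000 bp on the far side. Their plus-strand level at 47 bp was between 0.314% and 0.671%, on 14.4 to 28.9 reads per CpG. The minus strand had 0 reads per CpG at those sites, so the minus-strand level of a fragment of that length alone was not measured. At 48 bp the plus-strand level of isolated sites was between 52.5% and 79.9%, and the minus-strand level between 7.18% and 14.3%. Isolated sites with the next CCGG 49 bp to the right had only 1.05 to 2.20 plus-strand reads per CpG, against 35.7 to 77.4 at 50 bp. Sites with the fragment on their left kept 32.7 to 79.7 minus-strand reads per CpG at 47 to 49 bp.

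**Figure D2:**
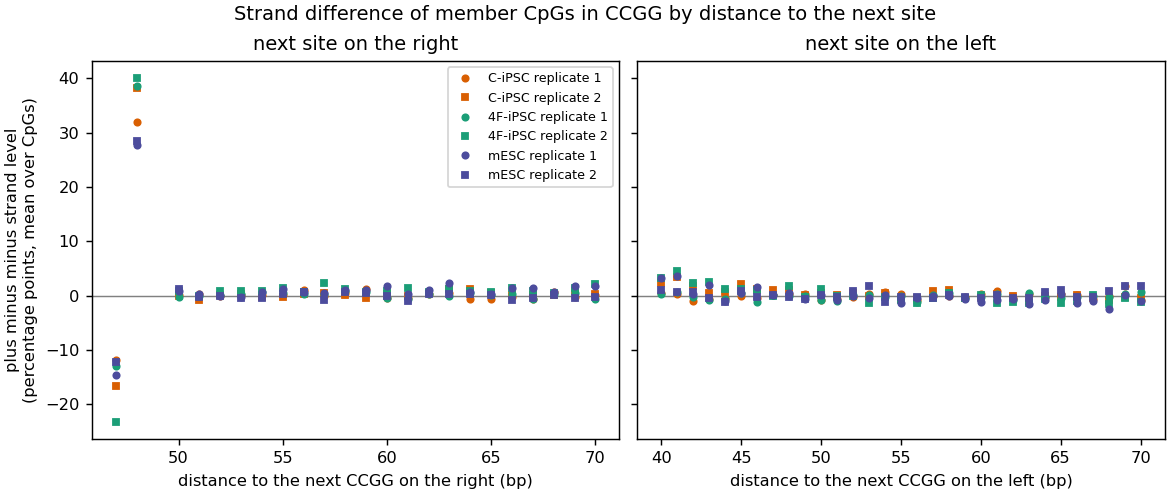
Mean difference between plus- and minus-strand levels (percentage points) of the chosen CpGs in CCGG by distance (bp) to the next CCGG on the right or left, for distances with at least 20 CpGs, with 1 point per library. All 6 libraries are far above 0 at 48 bp and below 0 at 47 bp on the right, and close to 0 at the other distances.

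At other distances the strands of CCGG had nearly equal means. Isolated sites with the next CCGG 50 bp to the right had 0 minus-strand reads per CpG. Those with it 50 bp to the left had 0 plus-strand reads. A single fragment of that length thus gave no comparison of the strands at its ends. The 14963 CCGG with the next site neither 47 nor 48 bp to the right had mean levels of 33.5% and 33.4% on the plus and minus strands in C-iPSC replicate 1 and 30.8% and 30.8% in mESC replicate 2. Their absolute strand difference still exceeded that of other CpGs by 3.76 percentage points (p = 0.03125, exact sign-flip test). The median level was 17.6% over all CCGG and 0.862% over other CpGs. Among CpGs with mean levels between 20% and 80% it was 8.64 percentage points in 5144 such CCGG and 8.24 in 58569 other CpGs, a gap of 0.396 ± 0.888 (SD, 6 libraries). CCGG with a fragment of 40 to 250 bp to the right only had a strand difference of 36.1 percentage points over 1237 CpGs, and those with a fragment to the left only -5.08 over 31. The gap of 41.2 ± 6.14 had the same sign in 6 of 6 libraries (p = 0.03125, exact sign-flip test), and 1033 of the 1237 were sites at 48 bp.

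Some CCGG at other distances were discordant as well. The site near Apol7e, with its neighbors 44 and 75 bp away, had no methylated plus-strand read in C-iPSCs, of 88 and 85, against 54 of 60 and 68 of 73 on the minus strand. In mESCs it had 0 of 92 and 0 of 52 against 31 of 65 and 50 of 67. The CCGG near Gm29747, chr3:7779088-7779089, had 0 methylated minus-strand reads in all 6 libraries, of 35 to 57 per library, with plus-strand levels between 80% and 92.2%. So either strand could be the unmethylated one, and it was the same strand in all cell types.

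Outside CCGG, 373 CpGs were discordant in C-iPSCs, 415 in 4F-iPSCs, and 347 in mESCs, and the minus strand was the higher one at 220, 235, and 196 of them. They were 0.170%, 0.189%, and 0.158% of the CpGs outside CCGG. Of the 765 discordant in some cell type, 80 were so in all 3, 130 in both iPSC types only, 62 in C-iPSCs and mESCs only, and 18 in 4F-iPSCs and mESCs only, while 101, 187, and 187 were discordant in C-iPSCs, 4F-iPSCs, or mESCs alone. Fewer were called again in other cell types than at the 48-bp sites. Of those discordant in C-iPSCs, 28.4% (24.1 to 33.2) were called with the same sign in both other cell types, against 89.9% (87.5 to 91.8) of the 48-bp sites. From 4F-iPSCs the shares were 27.2% and 85.3%, and from mESCs 26.2% and 98.7%. Outside CCGG the sign alone was shared more often than the call. Of the 373, 359 kept it in 4F-iPSCs and 345 in mESCs. Of the 415, C-iPSCs shared it at 412 and mESCs at 365. Of the 347, C-iPSCs shared it at 343 and 4F-iPSCs at 320. None was called with the opposite sign in another cell type. There the median difference in the same direction ranged from 17.8 to 39.1 percentage points.

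At the CpG near Ddr2, a gene for a collagen receptor whose start is 6569 bp away, the minus strand was methylated in 37 of 43 and 45 of 48 reads in C-iPSCs and the plus strand in 2 of 79 and 0 of 75. In 4F-iPSCs it was 27 of 27 and 32 of 34 against 1 of 30 and 2 of 32, and in mESCs 51 of 59 and 27 of 31 against 4 of 293 and 2 of 104. The strand levels did not come near each other in any library. Of the 6 chosen CpGs within 300 bp, itself included, 5 were discordant in some cell type, always with the minus strand higher. At chr1:170117172-170117173, 42 bp to its right, plus-strand levels were between 0 and 3.03% and minus-strand levels between 69.4% and 100%. At chr1:170117117-170117118, 13 bp to its left, they were 38.3% to 61.3% against 91.4% to 100%.

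The CpG near the pseudogene Rps15a-ps8 stood among CpGs that were not discordant. Its plus strand was methylated in 59 of 380 and 61 of 452 reads in C-iPSCs, 56 of 385 and 41 of 405 in 4F-iPSCs, and 15 of 253 and 27 of 231 in mESCs. On the minus strand it was 109 of 112 and 113 of 118, 97 of 102 and 89 of 93, and 37 of 41 and 40 of 46. At chr4:53807629-53807630, 30 bp away, both strands were between 84.7% and 98.1% in all libraries. None of the other 8 chosen CpGs within 300 bp was discordant in any cell type.

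Near 4930553E22Rik, all minus-strand reads were methylated, from 32 of 32 in mESC replicate 1 to 145 of 145 in both C-iPSC libraries. The plus strand had between 15.8% and 25.4%, on 277 to 624 reads. The CpG near Abcc10, which encodes a membrane transporter, was similar, with every minus-strand read methylated in all libraries, on 20 to 70 reads, and between 10.3% and 26.2% of the plus-strand reads, on 252 to 630. Near Gm23072 the plus strand was the methylated one, at 96.0% to 100% on 25 to 78 reads, with 17.9% to 32.02% on the minus strand, on 164 to 358 reads. In these 3 CpGs the less methylated strand had the more reads in every library. Over the 80 CpGs discordant in all cell types it had more reads at 47, with a median of 1.27 times the reads of the other strand, and more than 2 times at 23. Whether reads of other origin added to it was not tested.

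Over these 80 CpGs the less methylated strand had a median level of 18.1% and the other strand 80.2%. At 24 of them the less methylated strand stayed under 5% in all 6 libraries, and at 15 it had no methylated read in any. At 8 the other strand was fully methylated in all libraries. Of the 113 chosen CpGs outside CCGG within 50 bp of them, 44 were discordant too, and at the 55 of the 80 with such a neighbor the median strand difference was 52.1 percentage points at the CpG itself and 20.8 in its neighbors. Over all 765 the neighbors had 10.5, and 196 of the 1155 neighbors were discordant. Of all chosen CpGs outside CCGG, 0.349% were discordant in some cell type. By MspI fragment, 676 fragments held a discordant CpG outside CCGG, and 467 of these had 2 or more of the chosen CpGs. Of the 467, 67 held 2 or more discordant ones, up to 5, and in 55 of the 67 all pointed to the same strand.

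Discordant CpGs outside CCGG lay in repeats more often than other CpGs of intermediate level. Soft-masked sequence, the part of GRCm38 marked as repeats, held 8.16% of all chosen CpGs and 17.1% of those outside CCGG with levels between 20% and 80%. It held 52.3% (48.8 to 55.8) of the 765 discordant ones and 62.5% (51.6 to 72.3) of the 80. By cell type it held 190 of the 373 discordant in C-iPSCs, 188 of the 415 in 4F-iPSCs, and 222 of the 347 in mESCs. Among CpGs of intermediate level, 3.46% in soft-masked sequence differed by more than 30 percentage points, against 1.16% elsewhere, averaged over libraries. The share was higher in soft-masked sequence in 6 of 6 libraries (p = 0.03125, exact sign-flip test), a comparison chosen after the data were seen. Promoters, within 1 kb of a transcript start, held 59.0% of all chosen CpGs but 8.89% of the 765, beside 9.09% of those of intermediate level outside CCGG. Intergenic sequence held 54.4% of the 765, beside 14.45% of all chosen CpGs and 32.5% of those of intermediate level outside CCGG. Read depth was less even between strands there, with a median ratio of the deeper to the shallower strand of 1.32 over all chosen CpGs, 1.49 over the 765, and 1.73 over the 80. Whether misplaced reads of repeat copies took part was not tested.

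Like sequences were compared because repeat copies share their surroundings. Of the 765, 223 had another discordant CpG among them with at most 3 mismatches over the 30 bases, in either orientation, and they formed 60 groups of up to 14. In the 410 pairs, the same strand of the repeat was the methylated one in 223 and opposite strands in 187. Of the 192 pairs in opposite orientation it was the same strand in 104 and opposite strands in 88. In 29 of the 60 groups every pair had the same strand of the repeat methylated. The pair of copies shown, in opposite orientation, was picked because its strands match.
near Gm8938, chr16:57016330-57016331: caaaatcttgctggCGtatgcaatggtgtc
near Gm12001, chr11:12219033-12219034: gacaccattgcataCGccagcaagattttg
The first had no methylated plus-strand read in any library, of 23 to 46, with minus-strand levels between 57.8% and 91.2%. The second, its reverse complement, had no methylated minus-strand read, of 22 to 47, with plus-strand levels between 52.5% and 93.4%. The largest group held 14 discordant CpGs, beside 286 chosen CpGs of like sequence in all.

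CpGs close to a cut site had a further difference. At 3 bp from the nearer CCGG, the strand whose reads start at that site was higher than the other by 3.79 ± 0.448 percentage points (SD, 6 libraries) over 1573 CpGs outside CCGG of intermediate level. The difference was 5.49 ± 1.01 at 4 bp over 1442 CpGs. It was between 0.743 and 1.68 in the bins from 5 to 50 bp. It was above 0 in all 6 libraries in each bin, except in mESC replicate 2 at 5 to 6 bp, with -0.162. The libraries were split at 5 to 6 bp, where the mean was 1.11 ± 1.21. C-iPSC replicate 2, 4F-iPSC replicate 2, and mESC replicate 1 had 1.88 to 2.52 there, and the other libraries -0.162 to 0.241. At 7 to 10 bp the same libraries had 2.48 to 2.86 and the others 0.674 to 0.721. At 4 bp, 2.57% of the CpGs were discordant in some cell type, against 0.572% at 3 bp and 0.873% to 1.36% from 5 bp on.

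**Figure D3:**
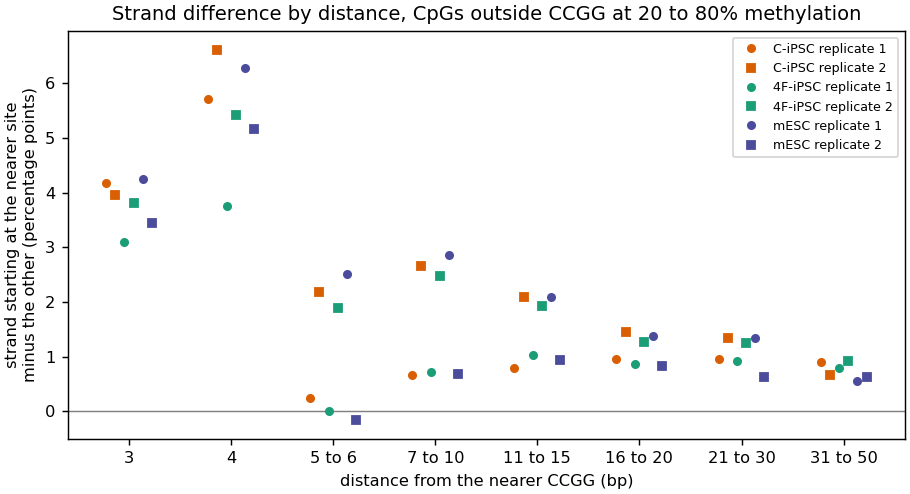
Mean difference (percentage points) between the strand whose reads start at the nearer CCGG and the other strand, by distance from that site (bp), for CpGs outside CCGG with mean levels of 20 to 80%, with 1 point per library. The values at 3 and 4 bp lie between 3.09 and 6.62 in all libraries, above those of every farther bin.

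A strand difference that changed between cell types was rare. The limma test of per-library strand differences, with Benjamini-Hochberg adjustment, called 43 CpGs between C-iPSCs and mESCs, 375 between 4F-iPSCs and mESCs, and 86 between 4F-iPSCs and C-iPSCs, at a change above 30 percentage points. That was 0.0182%, 0.159%, and 0.0364% of the CpGs, beside 0.0113%, 0.122%, and 0.0230% of all CpGs tested. Unadjusted, p was under 0.05 at 6168, 8185, and 6169 CpGs, whatever the size of the change, which is 2.61%, 3.47%, and 2.61% of the chosen CpGs. Of the calls, 41, 313, and 75 were outside CCGG. The first count fell to 15 when C-iPSC replicate 2 was left out, to 4 when mESC replicate 1 was, and to 24 when mESC replicate 2 was. The second fell to 230 without 4F-iPSC replicate 1 and 103 without mESC replicate 1, and the third to 54 without C-iPSC replicate 2.

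The 2 widest such changes outside CCGG of each comparison, 1 of them shared, ranked after their values were seen, are shown with the CpG in capitals. Those near Gm45814 and Gm16511 and in the intron of Kcnmb2 lie in soft-masked sequence, and those of 2610035D17Rik and Iffo2 do not.
intron of 2610035D17Rik, chr11:113087133-113087134: ccgaagtctagcttCGctgttcagaacggg
near Iffo2, chr4:139508413-139508414: agcgtgttttggtgCGtgaggatctgaggt
near Gm45814, chr9:19018660-19018661: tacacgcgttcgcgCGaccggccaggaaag
near Gm16511, chrX:102826891-102826892: ccccatagtagcatCGaggcattcctgcaa
intron of Kcnmb2, chr3:31943847-31943848: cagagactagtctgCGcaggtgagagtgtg
Near Gm45814, 4F-iPSCs were methylated on both strands, in 70 of 72 and 94 of 98 plus-strand reads and 192 of 199 and 215 of 223 minus-strand reads. In mESCs the plus strand had 0 of 125 and 3 of 47, and the minus strand 122 of 141 and 53 of 63. In C-iPSCs it was 22 of 69 and 22 of 82 against 62 of 75 and 77 of 104, so that the plus strand was between the other cell types. The strand difference was 84.0 percentage points apart between 4F-iPSCs and mESCs (limma, adjusted p = 4.96e-28) and 48.8 between 4F-iPSCs and C-iPSCs (adjusted p = 2.85e-10). Between C-iPSCs and mESCs it was 35.2 apart (limma, adjusted p = 0.0662).

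The CpG near Gm16511 on the X chromosome, of which male cells carry one copy, was methylated on both strands in 4F-iPSCs, with plus-strand levels of 87.1% and 85.2% and minus-strand levels of 87.7% and 79.4%. The minus strand fell to 3 of 94 and 0 of 84 reads in C-iPSCs and 1 of 98 and 3 of 63 in mESCs, while the plus strand stayed at 72.9% and 86.5% and at 63.9% and 58.0%. The change was 74.3 percentage points between the iPSC types (adjusted p = 2.19e-14) and 56.1 between 4F-iPSCs and mESCs (adjusted p = 2.73e-09), both by limma. In the intron of Kcnmb2, which encodes a potassium channel subunit, the plus strand was at 93.9% and 77.8% in 4F-iPSCs, 7.69% and 23.5% in C-iPSCs, and 2.08% and 11.1% in mESCs. The minus strand was at 90.4% and 80.8%, 74.2% and 83.9%, and 52.9% and 77.3% in the same order.

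At 2610035D17Rik and Iffo2 both iPSC types were discordant and mESCs were not. In the intron of 2610035D17Rik the plus strand of C-iPSCs was at 87.0% and 90.9%, above 32.5% and 54.5% on the minus strand, and that of 4F-iPSCs was at 95.8% and 89.1%, above 54.5% and 33.3%. The mESC libraries had 30.0% and 51.9% on the plus strand and 57.5% and 57.9% on the minus strand. At chr11:113087158-113087159, 25 bp away, both iPSC types were discordant in the other direction, with 24.6% to 47.8% on the plus strand and 83.8% to 95.7% on the minus strand. The change against mESCs was 66.3 percentage points for C-iPSCs (adjusted p = 0.000675) and 71.3 for 4F-iPSCs (adjusted p = 2.55e-07) by limma, and both comparisons use the same mESC libraries. Near Iffo2 the change by limma was 64.6 (adjusted p = 0.00147) and 48.5 (adjusted p = 0.0129).

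**Figure D4:**
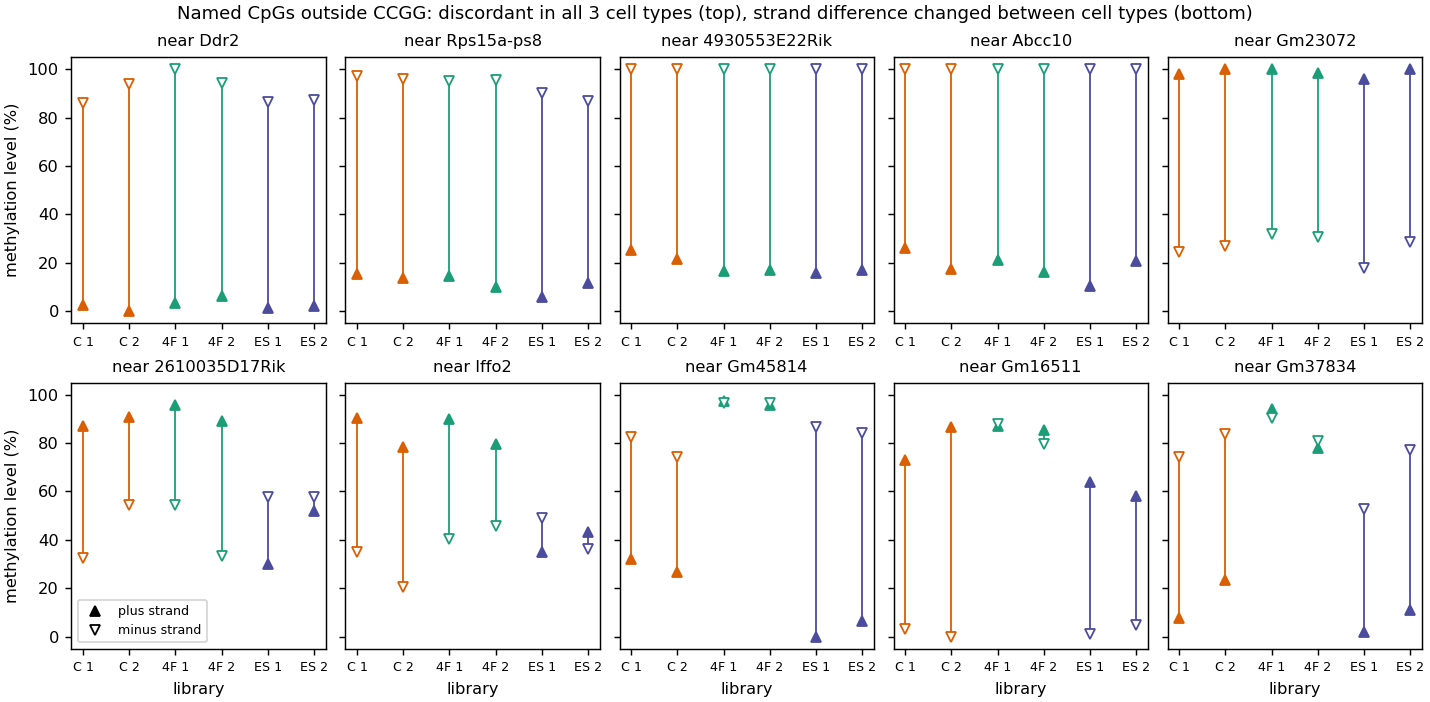
Methylation level (percent) of the plus strand (filled triangles) and the minus strand (open triangles) in each library, for the 5 CpGs outside CCGG with the widest difference kept in all cell types (top) and the 5 with the widest change between cell types (bottom), where C, 4F, and ES stand for C-iPSC, 4F-iPSC, and mESC replicates 1 and 2. In the top row the strands are at least 67.7 percentage points apart in every library, and in the bottom row at least 1 cell type is not discordant.

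Reading both strands also gave a check of differences between cell types, since each strand is a separate set of reads of the same library. A strong call was a difference above 0.333 with an unadjusted p under 0.05 by Fisher's exact test, run on the reads of 1 strand added over both libraries. On both strands, 4F-iPSCs were above mESCs at 28037 CpGs and below at 45, which among all CpGs tested was 9.38% and 0.0124%, and here 11.9% and 0.0191%. C-iPSCs were above mESCs at 3024 CpGs and below at 31, with 1.04% and 0.00754% among all CpGs tested. 4F-iPSCs were above C-iPSCs at 980 CpGs and below at 46, with 0.397% and 0.0124% among all CpGs tested. Of the calls made with the strands pooled, 75.7% of the higher calls of 4F-iPSCs against mESCs were called on each strand alone. The share was 49.5% where C-iPSCs exceeded mESCs and 61.5% where 4F-iPSCs exceeded C-iPSCs. No CpG called on the plus strand was called in the opposite direction on the minus strand, and the sign was the same at 36961 of the 37047 CpGs called higher in 4F-iPSCs than mESCs on the plus strand.

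Single libraries set the size of these counts. C-iPSCs were above mESCs at 8185 CpGs without C-iPSC replicate 1 and 1169 without C-iPSC replicate 2, and at 979 without mESC replicate 1 and 7604 without mESC replicate 2. Without mESC replicate 1, 4F-iPSCs were above mESCs at 14927 CpGs. Against C-iPSCs they were above at 2108 without C-iPSC replicate 2 and below at 70 without C-iPSC replicate 1.

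Imprinted genes, which are methylated on one parental copy, held 20 of the 31 CpGs at which C-iPSCs were below mESCs, and 18 of the 20 lay in the promoter of Plagl1, with 1 each in Meg3 and H19. Of 34 imprinted genes listed, 20 had the chosen CpGs in their promoters, 234 in all. C-iPSCs were above mESCs at 0 of them on both strands, and 4F-iPSCs were above C-iPSCs at 38 and below at 0, while 4F-iPSCs were above mESCs at 1. In the 3 higher directions strong calls take 1.04%, 0.397%, and 9.38% of all CpGs tested, and 1.28%, 0.415%, and 11.9% of the chosen ones. C-iPSCs were below mESCs at 0.00754% of the tested and 0.0131% of the chosen CpGs. For 4F-iPSCs below C-iPSCs it was 0.0124% and 0.0195%. At an unadjusted p under 0.05 on both strands, whatever the size, C-iPSCs were below mESCs at 47, 4F-iPSCs above mESCs at 23, and 4F-iPSCs above C-iPSCs at 57. Over all CpGs tested, that cut takes 0.125%, 23.7%, and 9.92% in these directions, and over all chosen CpGs 0.172%, 30.7%, and 14.6%. Plagl1, which encodes a zinc finger protein, had 27 of these CpGs at chr10:13090824-13091112, and all were called higher in 4F-iPSCs than C-iPSCs. Their plus-strand means were 4.82% and 10.3% in the C-iPSC libraries, 48.03% and 60.6% in the 4F-iPSC libraries, and 45.8% and 44.3% in the mESC libraries. The minus-strand means were 5.96% and 8.90%, 58.3% and 63.7%, and 49.8% and 44.5%. Both strands thus had C-iPSCs low and the other cell types near the middle. The short RNA gene Gm27741 shares the same CpGs.

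The splicing factor-like gene Zrsr1, also imprinted but not among the 34 listed genes, had 18 CpGs, all called higher in 4F-iPSCs than C-iPSCs. They were at 3.95% and 3.08% on the plus strand of the C-iPSC libraries, 50.4% and 63.7% on that of 4F-iPSCs, and 21.9% and 16.1% on that of mESCs, with 3.27% and 2.73%, 47.99% and 60.0%, and 22.6% and 16.8% on the minus strand. Windows of 30 bases from both promoters show the density of the called CpGs, which are in capitals.
Plagl1, chr10:13090860-13090889: CGctCGgggagttgCGgcCGCGggcacCGg
Zrsr1, chr11:22971961-22971990: aaaaagcagtaaatCGtactgCGcaggcct
Single CpGs of Meg3 and Snrpn had the same order. At that of Meg3, a noncoding RNA, plus- and minus-strand means were 5.26% and 7.78% for C-iPSCs, 67.6% and 66.8% for 4F-iPSCs, and 47.1% and 49.2% for mESCs. Levels in the other imprinted promoters ranged widely. Peg13, with 9 CpGs, had C-iPSCs at 41.7% and 49.5% on the plus and minus strands, 4F-iPSCs at 63.1% and 67.1%, and mESCs at 71.9% and 76.7%. The means of H19, Airn, Mest, and Magel2 reached 65.5%, 47.4%, 42.5%, and 27.3%, each in 4F-iPSCs. Low levels were found in the 3 listed genes with the most CpGs beside Plagl1. Over the 39 CpGs of Zdbf2 no cell type mean on either strand was above 0.899%, over the 27 of Igf2, a growth factor, none was above 3.46%, and over the 41 of Gnas, a G protein subunit, 4F-iPSCs were at 9.25% ± 0.519 and 7.50% ± 2.51 (SD, n = 2) on the plus and minus strands, with 5 CpGs called higher than in C-iPSCs.

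Germline genes are kept methylated outside the germ line. In 11 of 20 such genes the promoters held 78 of the chosen CpGs, and 4F-iPSCs were above mESCs at 29 of them on both strands, C-iPSCs above mESCs at 2, and 4F-iPSCs above C-iPSCs at 2, with no call in the other direction. These calls take 9.38%, 1.04%, and 0.397% of all CpGs tested and 11.9%, 1.28%, and 0.415% of the chosen ones. At an unadjusted p under 0.05 on both strands the counts were 57, 33, and 38, and 0 in the other direction. Over all CpGs tested, 23.7%, 14.5%, and 9.92% pass that cut in these directions and 0.118%, 0.125%, and 0.128% in the other. Hormad1, needed for meiotic chromosome pairing, had 10 CpGs at 24.4% ± 6.33 and 28.7% ± 7.76 (SD, n = 2) on the plus and minus strands in mESCs. C-iPSCs had 46.3% ± 10.5 and 55.6% ± 8.16 there, 4F-iPSCs had 64.7% ± 1.91 and 69.1% ± 1.43, and 9 of the CpGs were called higher in 4F-iPSCs than mESCs. Sycp1, of the synaptonemal complex, had 15 with means between 27.2% and 46.4% and no call, and Ddx4, a germ cell helicase, had 11 between 7.43% and 15.9% and no call. These lists were not tested as sets, and the median absolute strand difference was 7.16 percentage points in the germline list and 1.88 in the imprinted list, beside 1.60 over all chosen CpGs and 7.55 over those with levels between 20% and 80%.

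The genes that copy or remove methylation were low, with 1 exception. In 12 of 18 such genes the promoters held 189 of the CpGs, with list means between 1.11% and 1.89% on either strand in every cell type. None of the 189 was called strongly. Over all chosen CpGs strong calls took 11.9% for 4F-iPSCs above mESCs, 1.28% for C-iPSCs above mESCs, and 0.415% for 4F-iPSCs above C-iPSCs. At an unadjusted p under 0.05 on both strands, 3 of the 189 were higher in 4F-iPSCs than mESCs and 4 higher than in C-iPSCs. Of all CpGs tested 23.7% and 9.92%, and of the chosen CpGs 30.7% and 14.6%, pass that cut. Dnmt3a, a de novo methyltransferase, had 50, with means of 0.497% to 0.976%, and Tet3, which oxidizes methylcytosine, had 34, with 1.08% to 1.67%. Uhrf2 and Lig1 had 18 each, with 0.785% to 1.60% and 1.08% to 3.07%. The exception was Tet1, another oxidizing enzyme, whose 3 CpGs were at 36.7% and 34.0% on the plus and minus strands in 4F-iPSCs, and between 15.4% and 16.98% in the other cell types. None of the 189 was discordant, nor any of the 234 in imprinted genes, and 1 of the 78 in germline genes was, in Sycp1. Over all chosen CpGs 0.686% were discordant in some cell type, so lists of this size would hold few or none.

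Among all promoters, those with the most CpGs called higher in C-iPSCs than mESCs were the pseudogene Gm12486 with 6, and 1700018B08Rik and Ahnak2 with 4 each, tied with Gm17934, Gm3786, and Gm27045, which shares the CpGs of 1700018B08Rik, of 224 promoters with such a call. The called CpGs of Ahnak2 had plus-strand means of 64.9% and 73.1% in the C-iPSC libraries, 81.4% and 82.7% in those of 4F-iPSCs, and 32.1% and 32.5% in those of mESCs. Their minus-strand means were 66.4% and 73.7%, 81.3% and 82.9%, and 25.5% and 36.8%. Higher in 4F-iPSCs than mESCs were 10 CpGs each of the long noncoding RNA Gm42488 and of Gm16270 and Gm16280, which share theirs, tied with Gm42558, H2-Pa, and Hormad2, among 1502 promoters. Lower in 4F-iPSCs than mESCs were single CpGs of 4 promoters, among them Mrpl19, of the mitochondrial ribosome. That CpG had 0 and 0 on the plus strand and 0 and 2.04% on the minus strand in 4F-iPSCs, beside 45.7% and 23.1% and 43.96% and 33.3% in mESCs. Without mESC replicate 1 the difference was -28.0 percentage points, and the call was lost. The only promoter CpG lower in 4F-iPSCs than C-iPSCs was 1 of the 15 of Prpf39, a splicing factor gene, at chr12:65037146-65037147. It had 79.7% and 82.4% on the plus strand in C-iPSCs against 14.6% and 14.3% in 4F-iPSCs, and 62.5% and 77.9% against 32.9% and 24.5% on the minus strand.

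**Figure D5:**
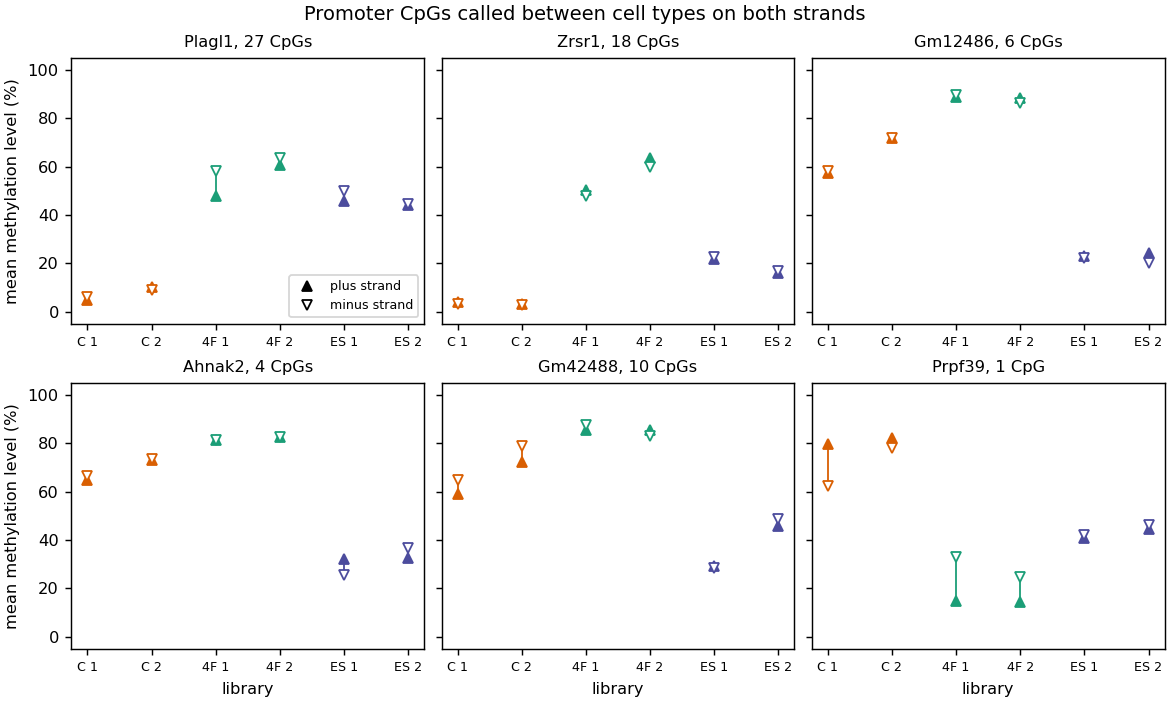
Mean methylation level (percent) on the plus strand (filled triangles) and the minus strand (open triangles) in each library, over those promoter CpGs of 6 genes that were called between cell types on both strands, where C, 4F, and ES stand for C-iPSC, 4F-iPSC, and mESC replicates 1 and 2. In Plagl1 the strands of 4F-iPSC replicate 1, at 48.03% and 58.3%, are farther apart than those of the C-iPSC libraries, and in Prpf39 the 4F-iPSC libraries lie below the others on both strands.

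The chosen CpGs were less methylated than those that failed only the depth asked of each strand, whose total depth was not matched to theirs. Compared with 215111 CpGs covered by 40 reads or more per library but fewer than 20 on some strand, their mean level was 21.3% against 31.6%, a difference of -10.2 ± 1.42 percentage points (SD, 6 libraries), lower in 6 of 6 libraries (p = 0.03125, exact sign-flip test). With a minimum of 30 reads per strand the difference was 1.80 with p = 0.0625 in the exact sign-flip test, so its direction depended on the depth asked for. CCGG made up 7.11% of the chosen CpGs and 42.9% of the others, and soft-masked sequence 8.16% and 13.5%. At the boundary, 19477 CpGs whose lowest strand depth was 19 had a mean level of 15.0%, and 18042 at 20 reads had 14.8%.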

How the data were processed

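RRBS libraries were made by the authors with MspI, selected on a gel between 170 and 370 bp, and sequenced as 50-bp paired ends. The authors aligned unique pairs to mm10 with BSMAP 2.90, allowing mismatches up to 8%, and deposited for each CpG and library, from MOABS, the total and methylated read counts of each strand. The deposited files also give the methylation level of both strands together as a fraction of reads. From the counts, the level of each strand was computed here as methylated over all reads, and no value was imputed. Genes and bases came from the GRCm38 reference with GENCODE vM21 annotation, and coordinates are 1-based.

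A CpG was discordant in a cell type where its strands differed by more than 0.3 with 1 sign in both libraries. Strand differences within a cell type were tested by Fisher's exact test with Benjamini-Hochberg adjustment over 477284 CpGs. Changes of the strand difference between cell types were tested with limma 3.58.1 (R 4.3.3) on per-library differences weighted by their binomial precision, with a prior fitted to CpGs of level 0.1 to 0.9. The weights and that prior were added after an unweighted fit had failed on simulated data. Where a library was left out, the lone library of its cell type was assumed to vary like the other groups. Strong calls between cell types followed the study's criteria on each strand, without adjustment of p. Means over libraries were tested by exact sign flips or exact permutation. Python 3.11.15, numpy 2.4.6, pandas 2.3.3, scipy 1.17.1, and matplotlib 3.10.9 were used.

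The CpGs, gene lists, and tests were chosen with earlier results of these data known. CpGs were named by rank, the 3 widest in each cell type and the 5 widest kept in all 3, passing over chromosome 18 and with 1 CpG of 4F-iPSCs not reported here, and 3 genes were named for each list and each comparison by their number of CpGs, ties included where stated. Rankings outside CCGG, distances between sites, repeats, like sequences, and distances to a cut site were looked at after the data were seen. Alternatives were other depth minimums and thresholds, CCGG left out, single libraries left out, and fits with a replicate block.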

Additional observations from a re-analysis of the deposited data

Results flagged for a closer look

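The strand difference changed between cell types, by the limma interaction of strand and cell type with Benjamini-Hochberg adjustment, at 43 CpGs between C-iPSCs and mESCs, at 375 between 4F-iPSCs and mESCs, and at 86 between 4F-iPSCs and C-iPSCs. The widest changes between C-iPSCs and mESCs outside CCGG were 66.30 percentage points in the intron of 2610035D17Rik and 64.64 near Iffo2. Between 4F-iPSCs and mESCs they were 84.03 near Gm45814 and 71.27 in the intron of 2610035D17Rik. Between 4F-iPSCs and C-iPSCs they were 74.28 near Gm16511, with the plus strand in excess in C-iPSCs, and 64.01 in the intron of Kcnmb2, where the nearest start is that of Gm37834. The comparisons share libraries, so these are not independent.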

How the results depend on the processing

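The number of discordant CpGs followed the depth minimum, the threshold, and the MspI sites kept. With at least 10 reads per strand there were 2049, 2240, and 1797 in C-iPSCs, 4F-iPSCs, and mESCs, and with at least 30 there were 578, 613, and 506. Without CCGG there were 374, 416, and 349, without the CCGG 47 or 48 bp from the next site 392, 436, and 371, and with a threshold of 0.2 there were 1993 in C-iPSCs and 2314 in mESCs. Calls by Fisher's exact test numbered 2623, 2633, and 2352 at 10 reads, 716, 682, and 677 at 30 reads, 613, 534, and 624 without CCGG, 640, 558, and 665 without the 47- and 48-bp sites, and 2483, 2207, and 2506 above 0.2. The percentage of CpGs differing by more than 0.3 per library was 0.942, 0.779, and 1.21 at 10 reads, 0.769 in 4F-iPSCs at 30 reads, and 0.426, 0.3405, and 0.675 without those sites.

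The percentage called with the same sign in both other cell types was 60.4 for C-iPSCs, 56.96 for 4F-iPSCs, and 62.3 for mESCs at 10 reads, and 68.0 for 4F-iPSCs at 30 reads. It was 28.6, 27.4, and 26.4 without CCGG, 30.6, 29.4, and 27.8 without the 47- and 48-bp sites, and 53.7, 58.2, and 44.5 above 0.2. Leaving out single libraries gave 55.2 to 69.1 for C-iPSCs and 52.1 to 64.5 for 4F-iPSCs. With a library left out, the gap between CCGG and other CpGs was 6.25 to 6.72 percentage points, that by flanking fragment 39.8 to 42.7, and that between the chosen and other CpGs -10.56 to -9.82, all at the smallest p that exact sign flips over 5 libraries can give, 0.0625. At 30 reads the last turned to 1.80.

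Strong calls higher in C-iPSCs than mESCs numbered 1557 at 30 reads, 4951 at 10 reads, 122 above 0.5, and 979 to 8185 with a library left out, and lower ones 9 at 30 reads and 0 above 0.5. For 4F-iPSCs against mESCs there were 15553, 44765, and 3107 higher and 22 lower above 0.5, and 14927 to 34653 higher with a library left out. For 4F-iPSCs against C-iPSCs there were 490, 1896, and 67 higher and 13 lower above 0.5, and 666 to 2108 higher and 32 to 70 lower with a library left out. Calls by limma between C-iPSCs and mESCs numbered 27 at 30 reads and 4 to 58 with a library left out. Between 4F-iPSCs and mESCs they were 216 at 30 reads, 582 at 10 reads, and 103 to 400, and between the iPSC types 150 above 0.2 and 54 to 93. Apart from the settings' own construction, the cause of these shifts was not tested. For the named CpGs, 140 of 140 leave-one-out values kept their direction and side of the threshold, and 63 of 64 for the named promoters, the exception being Mrpl19 with -28.03 percentage points without mESC replicate 1.

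Between same-numbered libraries, deviations of the strand difference correlated at -0.0443, -0.0632, and 0.0540, and those of the level at 0.336, -0.282, and -0.0913. Only same-numbered libraries were compared, so a grouping that crosses the numbers could not be found this way. At 5 to 6 bp from a cut site, C-iPSC replicate 2, 4F-iPSC replicate 2, and mESC replicate 1 had 2.18, 1.88, and 2.52 percentage points. C-iPSC replicate 1, 4F-iPSC replicate 1, and mESC replicate 2 had 0.241, 0.00595, and -0.162. The replicate block does not follow such a split, whose source was not tested. With the replicate block, limma called 35, 346, and 78 CpGs for C-iPSCs against mESCs, 4F-iPSCs against mESCs, and 4F-iPSCs against C-iPSCs. The Cochran-Mantel-Haenszel test with the replicate block gave 1441, 1390, and 1374 strand calls and left the counts of strong calls at 3024, 31, 28037, 45, 980, and 46.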
